A study of Mus musculus with 6 samples.

Results

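Oxidative phosphorylation (OXPHOS) genes of the nuclear and mitochondrial genomes were compared in fibroadipogenic progenitors (FAPs) of 2 sources. Members were chosen by name: rows of the count table whose symbols begin with Ndufa, Ndufb, Ndufc, Ndufs, Ndufv, Uqcr, Cox4 to Cox8, Atp5 or Sdha to Sdhd, together with the rows of the mitochondrial genome that encode respiratory chain proteins. The name pattern matched 106 rows, of which 4 ending in -ps were left out. This gave 102 nuclear and 13 mitochondrially encoded members, 115 of the 33276 genes in the table. Of these, 109 passed the filter on low counts and were tested. ATP8, Cox4i2, Cox6b2, Cox8c, Ndufb11b and Ndufs6b did not pass it.

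The circulating group held 3 libraries of FAPs from peripheral blood and the muscle group held 3 libraries of FAPs from muscle. The labels give MCAO as the strain of both groups, that is, mice with middle cerebral artery occlusion, a model of ischaemic stroke. Both groups thus carry the occlusion, and mice without it were not analysed here. The labels give no age or time after occlusion. Nor do they say whether a group's libraries are from different animals, and each p-value therefore measures a spread between libraries that may be technical.

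OXPHOS transfers electrons from nutrients to oxygen through complexes I to IV of the inner mitochondrial membrane, and the proton gradient built on the way drives ATP synthesis by complex V. Complexes I, III, IV and V combine subunits of both genomes, while complex II, which is also an enzyme of the citric acid cycle, is entirely nuclear encoded. Mitochondrial genes are transcribed as long precursors that are cut into separate messengers, and nuclear genes for the same complexes have promoters of their own, many with sites for the factors NRF1 and GABP.

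Total depth ran from 5522193 to 13813329 counts per circulating library and from 17532558 to 23424039 counts per muscle library. 18S ribosomal RNA, whose reads stand under 2 symbols with equal counts, took 42.9%, 43.8% and 60.1% of the circulating counts and 32.3%, 27.8% and 32.3% of the muscle counts, without overlap. A list of 10 FAP and mesenchymal markers summed to 26662 to 28335 counts per 1000000 (CPM) in circulating and 57076 to 67867 CPM in muscle libraries, and all 10 were read in each library. Gsn was the largest part, at means of 14589 CPM in circulating and 33310 CPM in muscle libraries. Of the 10, 6 lay lower in circulating libraries without overlap, beside 11.4% of all genes tested. Dpp4 was the 1 that lay higher (142 ± 63.3 CPM in circulating, 29.7 ± 7.02 CPM in muscle libraries, SD), beside 16.2% of all genes, and Ly6a, Cd34 and Pi16 overlapped. Leukocyte markers summed to 84.8 to 120 CPM in circulating and 14.9 to 18 CPM in muscle libraries. This sum was higher in circulating libraries and small beside the FAP sum, but sums of different lists do not measure shares of cells. Of the 10 leukocyte markers 3 lay higher without overlap, beside 16.2% of all genes, and 0 lower. S100a9 gave 69.8 CPM of the sum in circulating replicate 1, and S100a8 gave 61.4 CPM in circulating replicate 3. Sums of muscle fibre markers overlapped, at 84.9 to 233 CPM in circulating and 115 to 183 CPM in muscle libraries. Sums of satellite cell, endothelial, erythroid and platelet markers overlapped too, and a brown fat list of 4 genes summed to at most 1.86 CPM in circulating and 5.62 CPM in muscle libraries. The part of other cells in the OXPHOS values was not tested, and fewer cells of a type cannot be told apart from less RNA per cell.

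No OXPHOS member passed an adjusted p of 0.05 in edgeR, in either direction, where 0.104% of all 20248 genes tested passed lower and 0.00494% higher in circulating FAPs. At an unadjusted p under 0.05, 16 of the 109 tested members were lower in circulating FAPs, 14.7% beside 9.64% of all genes, and 0 were higher, beside 9.71% of all genes. In 22 members, 20.2% beside 11.4% of all genes, the 3 circulating values lay below the 3 muscle values. No member had the opposite separation, which 16.2% of all genes had. DESeq2, another count test run as an alternative, passed 8 members lower and 0 higher among the 102 to which it gave an adjusted p, 7.84% beside 10.3% lower and 1.15% higher of all genes. Those 8 were ND3, COX3, ATP6, CYTB, Ndufs3, Ndufa10, Sdhaf2 and Atp5pb.

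The log2 fold changes, circulating minus muscle, were negative for 86 of the 109 tested members, 78.9% beside 45.5% of all genes. Their median was -0.48, against 0.15 over all genes tested. For the mitochondrially encoded members the median was -1.18 (12 tested, 11 negative), and for the nuclear members it was -0.44 (97 tested, 75 negative). These levels use trimmed mean of M values (TMM) scaling. With libraries scaled on abundant genes instead, the median of all genes moved up by 0.70, that of the mitochondrial members became -0.48 and that of the nuclear members became 0.25. Relative to the median of all genes, the members changed little between those scalings: the mitochondrial members stood at -1.33 under both, and the nuclear members at -0.59 with TMM and -0.60 with abundant genes. When the trend of fold change with abundance was removed, the nuclear members stood 0.14 above the median of all genes and the mitochondrial members at -0.73 relative to it. The direction of the nuclear members thus depended on the scaling, while the median over all tested mitochondrial members was negative in each setting tried. The median of the 5 mitochondrial genes that share little sequence with other genes, given below, was 0.05 with abundant genes. Over the scalings, filters, models and left-out libraries, the mitochondrial minus the nuclear median ran from -0.88 to -0.51. Without circulating replicate 1 the nuclear median was -0.92.

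**Figure D1:**
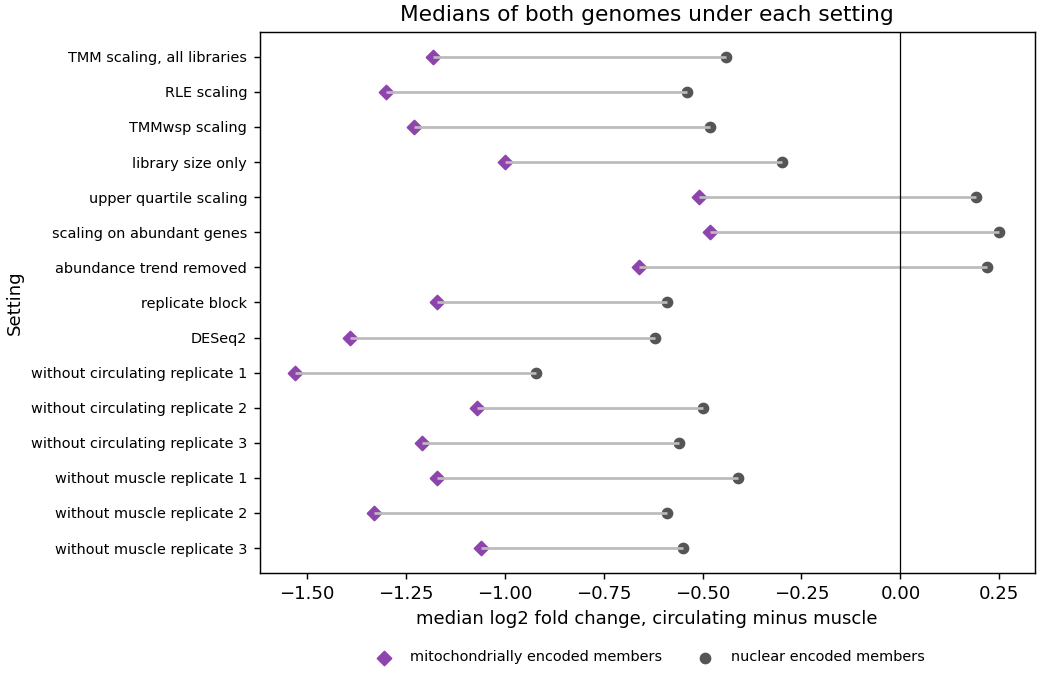
Median log2 fold change, circulating minus muscle (horizontal axis), of the mitochondrially encoded members (diamonds) and the nuclear members (circles) under each setting named on the vertical axis, with a line joining each pair. The mitochondrial median lies left of the nuclear median in each row shown, and the nuclear median passes 0 with upper quartile scaling, with scaling on abundant genes and with the abundance trend removed.

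A ratio taken within a library does not depend on scaling between libraries. Mitochondrially encoded reads amounted to 0.713, 0.906 and 0.821 times the nuclear OXPHOS reads in circulating replicates 1, 2 and 3, and to 1.28, 0.857 and 1.23 times in muscle replicates 1, 2 and 3. The groups overlapped through muscle replicate 2. The mean log2 ratio was 0.45 lower in circulating libraries, at -0.305 ± 0.174 in circulating and 0.145 ± 0.319 in muscle libraries (SD, n = 3 each). It was 0.63 lower without muscle replicate 2, where the groups no longer overlapped, and 0.35 lower at the other end of leaving out single libraries. Mitochondrially encoded genes held 1.34%, 1.28% and 1.07% of the reads without 18S in circulating libraries, against 1.91%, 1.19% and 1.73% in muscle libraries. The nuclear members held 1.87%, 1.41% and 1.30% in circulating libraries and 1.49%, 1.39% and 1.40% in muscle libraries. Both of these shares overlapped, and both genomes together held 2.76% ± 0.422 in circulating and 3.04% ± 0.417 in muscle libraries (SD, n = 3 each). Their 95% Wilson intervals reached at most 0.0132 percentage points from the share of 1 library for either genome. Reads carry no molecular identifiers that the labels name, so such intervals cover counting error only.

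**Figure D2:**
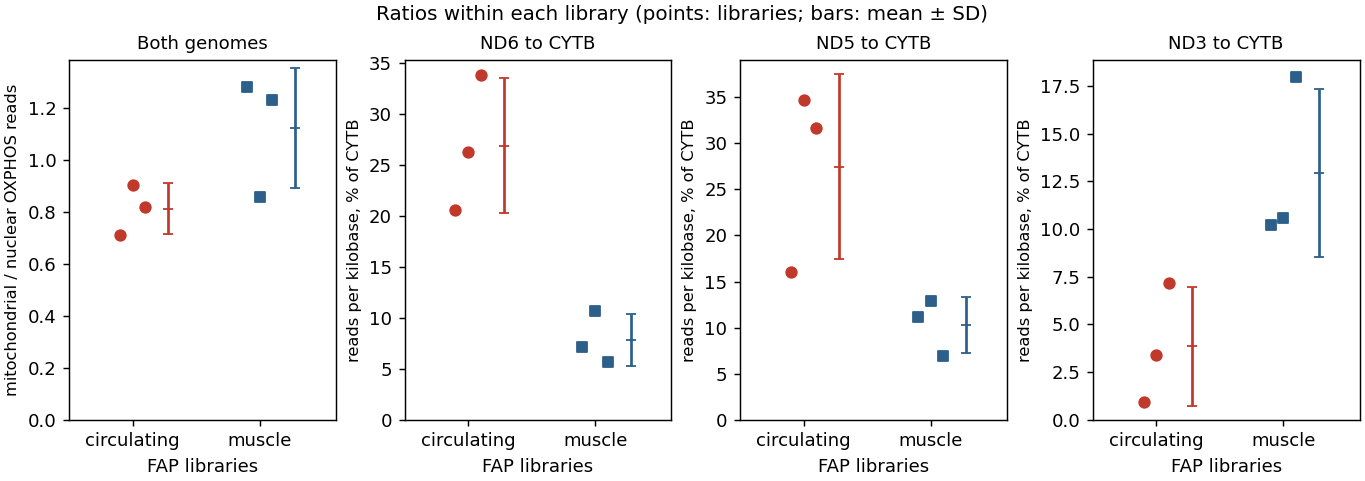
Ratios within each library, with circulating libraries left of muscle libraries: mitochondrial over nuclear OXPHOS reads, then ND6, ND5 and ND3 as percent of CYTB, each in reads per kilobase of exon. Points are libraries and bars are mean ± SD; the first ratio overlaps between the groups, ND6 and ND5 lie higher in circulating libraries and ND3 lies lower.

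The mitochondrial genes differed among themselves. CYTB, the cytochrome b subunit of complex III and over all libraries the most abundant mitochondrial member, had 2007, 1248 and 1016 CPM in circulating libraries and 4678, 2546 and 4214 CPM in muscle libraries. All 3 circulating values lay below all 3 muscle values. The log2 fold change was -1.42 ± 0.32 (SE, edgeR adjusted p = 0.126, 0.0348 to 0.297 over the alternatives), and leaving out circulating replicate 1 brought the adjusted p to 0.041. ND1, a core subunit of the membrane arm of complex I, had 2136, 1222 and 1448 CPM in circulating libraries and 3484, 1580 and 2590 CPM in muscle libraries, which overlapped (-0.67 ± 0.33, edgeR adjusted p = 0.29). In circulating libraries ND1 averaged 1602 CPM, above CYTB at 1424 CPM. ND2, of the same arm, averaged 756 ± 155 CPM in circulating and 1389 ± 561 CPM in muscle libraries (SD, n = 3 each), with overlap (-0.88 ± 0.34, edgeR adjusted p = 0.216). ND4, another proton-pumping subunit of that arm, had 906, 707 and 527 CPM in circulating libraries and 2081, 996 and 2153 CPM in muscle libraries, without overlap (-1.29 ± 0.35, edgeR adjusted p = 0.154). COX1, the catalytic subunit of complex IV, averaged 725 ± 231 CPM in circulating and 1598 ± 673 CPM in muscle libraries and overlapped (-1.14 ± 0.37, edgeR adjusted p = 0.18).

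ND5 and ND6 did not follow CYTB. ND5, the distal subunit of the complex I membrane arm, had 512, 690 and 513 CPM in circulating libraries and 828, 526 and 467 CPM in muscle libraries (-0.09 ± 0.33, edgeR adjusted p = 0.891). ND6, also of complex I and the only member encoded on the light strand, had 187, 149 and 156 CPM in circulating libraries and 152, 124 and 109 CPM in muscle libraries, which overlapped by a small margin (0.36 ± 0.38, edgeR adjusted p = 0.594). Its fold change was positive in each setting tried, and that of ND5 changed sign in 6 of them. Within the mitochondrial reads, ND6 held 2.44%, 2.82% and 3.14% in circulating libraries and 1.01%, 1.62% and 0.813% in muscle libraries, without overlap. CYTB held 26.1%, 23.7% and 20.4% in circulating libraries and 31.3%, 33.2% and 31.4% in muscle libraries, without overlap the other way. Per kilobase of exon, ND6 stood at 20.6%, 26.3% and 33.9% of CYTB in circulating libraries, against 7.15%, 10.7% and 5.7% in muscle libraries. ND5 stood at 16%, 34.7% and 31.7% of CYTB in circulating libraries, against 11.1%, 12.9% and 6.95% in muscle libraries. For both ratios to CYTB each circulating library lay above each muscle library. Within the mitochondrial reads, however, ND5 held 6.67%, 13.1% and 10.3% in circulating libraries and 5.53%, 6.86% and 3.48% in muscle libraries, which overlapped. Whether strand was used in counting was not given in the sources used here, so reads of ND6 cannot be told apart from reads of the opposite strand across it.

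ND3, a small complex I subunit of the membrane arm, had the smallest adjusted p among the members. It had 79, 97 and 202 reads in circulating libraries and 2438, 1612 and 4712 reads in muscle libraries, or 13.6 ± 8.23 CPM in circulating and 153 ± 74.5 CPM in muscle libraries (SD, n = 3 each). The groups lay far apart, with a log2 fold change of -3.49 ± 0.66 (edgeR adjusted p = 0.0838, 1.67e-05 in DESeq2), between -4.14 and -3.12 when single libraries were left out. ND3 stood at 0.944%, 3.4% and 7.18% of CYTB per kilobase in circulating libraries and at 10.2%, 10.6% and 18% in muscle libraries. COX2, COX3 and ATP6 were read at low levels. COX2, a catalytic subunit of complex IV, had 4.31, 1.73 and 2.64 CPM in circulating libraries and 7.95, 7.56 and 4.94 CPM in muscle libraries (-1.23 ± 0.60). COX3, also of the complex IV core, had 3.28, 2.79 and 5.38 CPM in circulating libraries and 19.2, 12.9 and 12.5 CPM in muscle libraries (-1.96 ± 0.64). ATP6, the proton channel subunit of complex V, had 1.9, 1.2 and 1.1 CPM in circulating libraries and 9.8, 6.5 and 5.04 CPM in muscle libraries (-2.33 ± 0.59). In each of these 3 genes the circulating values lay below the muscle values, at edgeR adjusted p = 0.285 for COX2, 0.183 for COX3 and 0.143 for ATP6. ATP8, its partner in the membrane part of complex V, had 1, 1 and 0 reads in circulating libraries and 6, 12 and 1 reads in muscle libraries, where a count of 0 allows up to 3 reads.

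**Figure D3:**
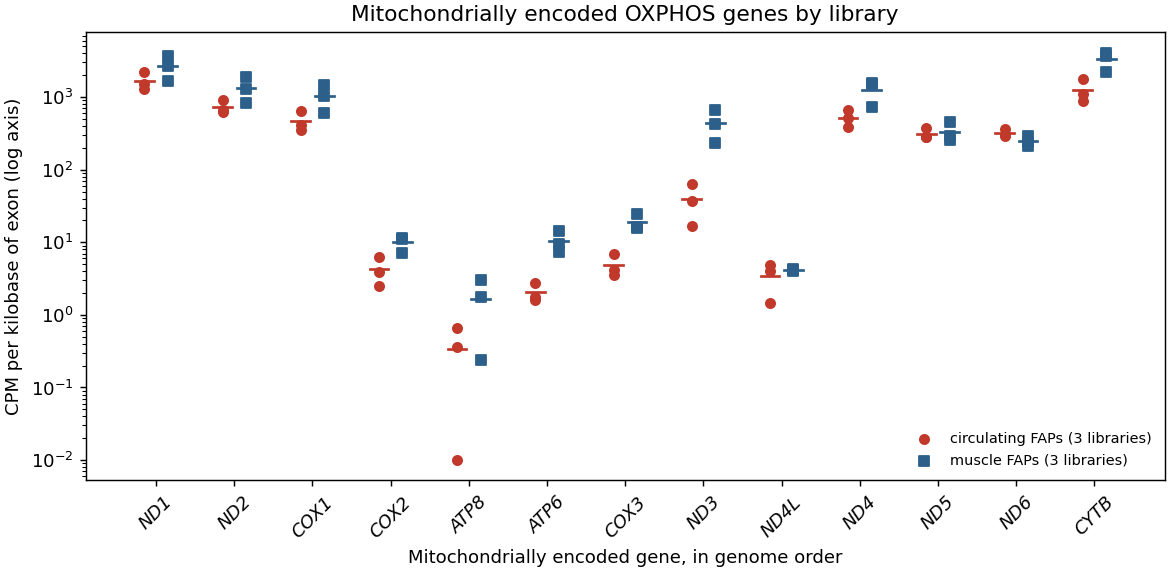
Levels of the 13 mitochondrially encoded genes in CPM per kilobase of exon (log axis), in genome order, with circulating libraries (circles) left of muscle libraries (squares) and lines at the means. The library with 0 reads of ATP8, circulating replicate 3, is drawn at 0.01, and COX2, ATP8, ATP6, COX3 and ND4L lie far below ND1 and CYTB in both groups.

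COX2, COX3, ATP6, ND4L and ND3 share nearly all their sequence with annotated nuclear copies. Stretches of mitochondrial DNA were copied into nuclear chromosomes in the past, and reads that match both places equally well may be split, dropped or assigned to either. Of all 50-base windows of each transcript in the GENCODE M21 annotation, 100% of COX2, 99.9% of COX3, 99.5% of ATP6, 98.8% of ND4L and 98% of ND3 also occurred in another annotated gene, in nearly all cases an unprocessed pseudogene on chromosome 1. The share was 62.2% for ND4, 51.1% for COX1, 8.19% for ND2 and 7.61% for ND5, and 0% for ND1, ND6, CYTB and ATP8. Per kilobase, the 5 genes above 90% lay between 2.05 ± 0.639 CPM for ATP6 and 39.1 ± 23.7 CPM for ND3 in circulating libraries (SD, n = 3). In muscle libraries they lay between 4.14 ± 0.127 CPM for ND4L and 439 ± 214 CPM for ND3. There ND3 stood above ND5 at 333 ± 106 CPM and ND6 at 247 ± 41.9 CPM per kilobase, which share little or no sequence. CYTB, with no shared window, stood at 1245 ± 453 CPM per kilobase in circulating and 3333 ± 980 CPM per kilobase in muscle libraries. ATP8, also with none in annotated genes, was lower still, at 0.337 ± 0.327 CPM per kilobase in circulating and 1.66 ± 1.38 in muscle libraries. Copies outside annotated genes could not be looked for, so a share of 0% does not exclude shared sequence elsewhere in the nuclear genome. The median log2 fold change was -1.96 over the 5 genes above 90% and -0.67 over the 5 genes under 10%, which are ND1, ND2, ND5, ND6 and CYTB. Nuclear members under 10% had a median of -0.41, so the genomes stood closer in genes under 10% than in all tested members. With scaling on abundant genes, the medians became -1.23 over the 5 genes above 90% and 0.05 over the 5 mitochondrial genes under 10%. The latter stood at 0.01 with upper quartile scaling and 0.01 with the abundance trend removed. The direction of the mitochondrial genes under 10% thus depended on the scaling, as that of the nuclear members did. With the mitochondrial genes under 10% alone, the log2 ratio to nuclear OXPHOS reads was -0.708 ± 0.182 in circulating and -0.354 ± 0.298 in muscle libraries (SD, n = 3 each), again with overlap. How reads with several matches were treated was not given in the sources used here, and the part of shared sequence in the fold changes was not tested.

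**Figure D4:**
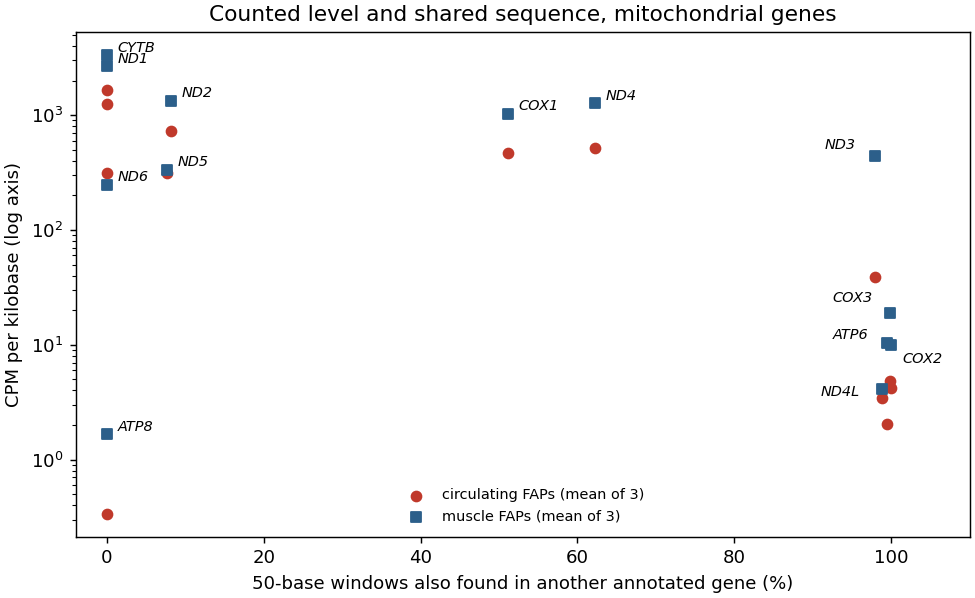
Mean level over 3 libraries in CPM per kilobase of exon (vertical log axis) of each mitochondrially encoded gene against the percent of its 50-base windows that occur in another annotated gene, for circulating (circles) and muscle (squares) FAPs. The 5 genes above 90% lie below CYTB and ND1, though ND3 lies above ND5 and ND6 in muscle FAPs. ATP8 lies lowest, with no shared window in annotated genes.

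ND4L, a small complex I subunit, shows the overlap most plainly. The annotated nuclear copy Gm10222 on chromosome 1 has 294 bases that equal the first 294 of the 297 bases of ND4L with 0 mismatches, and lacks the last 3, printed here in capitals.
ND4L: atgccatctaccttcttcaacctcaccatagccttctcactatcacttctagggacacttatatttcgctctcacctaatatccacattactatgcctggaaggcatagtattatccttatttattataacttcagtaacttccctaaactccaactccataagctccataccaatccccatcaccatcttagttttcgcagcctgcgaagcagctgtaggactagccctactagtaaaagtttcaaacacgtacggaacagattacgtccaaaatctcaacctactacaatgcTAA
Gm10222 was the single gene in the table called higher in circulating FAPs. It had 265, 150 and 96 reads in circulating libraries and 6, 11 and 14 reads in muscle libraries, with a log2 fold change of 4.93 ± 0.74 (edgeR adjusted p = 0.0469). The fold change ran from 4.67 to 5.09 when single libraries were left out, but the call held for 1 of these 6 fits, without circulating replicate 1 (edgeR adjusted p = 0.0453), and the others gave adjusted p-values from 0.103 to 0.202. It was 8.75e-11 in DESeq2, and 0.0684 and 0.0898 in edgeR with upper quartile scaling and with the abundance trend removed. ND4L itself had 6, 9 and 13 reads in circulating libraries and 20, 25 and 25 reads in muscle libraries (-0.30 ± 0.62, edgeR adjusted p = 0.798). Of the reads under either symbol, Gm10222 held 97.8% (95% Wilson interval 95.3% to 99%), 94.3% (89.6% to 97%) and 88.1% (80.7% to 92.9%) in circulating libraries. In muscle libraries it held 23.1% (11% to 42.1%), 30.6% (18% to 46.9%) and 35.9% (22.7% to 51.6%). ND4L overlapped between the groups in CPM, and its fold change was positive when circulating replicate 1 was left out (0.03) or libraries were scaled on abundant genes (0.46), while the share of Gm10222 did not overlap. The corresponding copy of ATP6, Gm10925, equals 678 of the 681 bases of ATP6 and had 87, 27 and 36 reads in circulating libraries against 366, 213 and 376 in muscle libraries. This copy moved the same way as ATP6 (-1.87 ± 0.66, edgeR adjusted p = 0.196). Genes of vomeronasal, taste and trace amine receptors, 403 silent genes with a known exon length, had a median of 0.811, 1.20 and 0.877 reads per kilobase per 1000000 reads without 18S in circulating libraries and 0.327, 0.432 and 0.273 in muscle libraries. That background was higher in circulating libraries, as Gm10222 was, and its part in the Gm10222 reads was not tested.

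Complex I, NADH dehydrogenase, is the entry point for electrons from NADH and the largest group, with 56 members. Of its 54 tested members 39 had a negative fold change, beside 45.5% of all genes, at a median of -0.41 (-0.40 for the nuclear members alone). With scaling on abundant genes the median of complex I was 0.33. In 11 members circulating FAPs lay lower without overlap, beside 11.4% of all genes. Ndufs3, a core subunit of the matrix arm, had 8.61, 7.45 and 6.37 CPM in circulating libraries and 37.6, 18.4 and 42.4 CPM in muscle libraries, well apart (-2.13 ± 0.65, edgeR adjusted p = 0.173), and 39.7% of its windows also occur in another annotated gene. Ndufa10, an accessory subunit of the membrane arm, had 9.49, 16.2 and 14.8 CPM in circulating libraries and 79.6, 41.2 and 40.3 CPM in muscle libraries, also apart (-1.99 ± 0.60, edgeR adjusted p = 0.171). Ndufb5, an accessory subunit, averaged 50.2 ± 4.99 CPM in circulating and 112 ± 55.4 CPM in muscle libraries (SD, n = 3 for either group). Ndufb2, Ndufs5, Ndufc2 and Ndufab1, accessory subunits of which the last is the mitochondrial acyl carrier protein, and the assembly factor Ndufaf8 also lay lower without overlap, with log2 fold changes from -1.56 to -0.75. With scaling on abundant genes the fold changes of these genes ran from -0.94 for Ndufs5 to 0.0 for Ndufb2. Separations in CPM, here and for other genes, use TMM scaling and were not recomputed under other scalings.

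Most other complex I members overlapped between the groups. The accessory subunits Ndufa13, Ndufa2 and Ndufb1 had the highest CPM among its nuclear subunits, and their log2 fold changes were -0.16, -0.30 and -0.48. Ndufb3, an accessory subunit, had 247, 83.4 and 150 CPM in circulating libraries and 94.1, 55.6 and 106 CPM in muscle libraries, and gave the highest positive value among members with a mean of at least 20 CPM (0.91 ± 0.50, edgeR adjusted p = 0.331). Ndufs6, an accessory subunit of the matrix arm, had 33.3, 41.8 and 125 CPM in circulating libraries and 60.4, 48 and 42.8 CPM in muscle libraries, so its positive value rested on circulating replicate 3, and it was -0.53 without that library. Ndufb4, Ndufb4b and Ndufb4c had equal counts in all libraries, so a set of reads was entered under 3 symbols. Over the 13 assembly factors of complexes I, II and IV the median was -0.59, with values from -2.27 for Ndufaf1 to 1.11 for Ndufaf3, both of complex I and both with overlapping groups.

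Complex II, succinate dehydrogenase, gave no difference in its 4 subunits that exceeded the spread between libraries. Sdha, the flavoprotein that oxidises succinate, had 57.5, 22.6 and 68 CPM in circulating libraries and 132, 31.5 and 73.4 CPM in muscle libraries (-0.68 ± 0.64, edgeR adjusted p = 0.552). Sdhb, the iron-sulphur subunit, had 94.4, 63.1 and 52.2 CPM in circulating libraries and 44.1, 29.9 and 125 CPM in muscle libraries (0.08 ± 0.61). The membrane anchors Sdhc and Sdhd gave -0.28 ± 0.59 and 0.17 ± 0.60. All 4 subunits overlapped. Sdhaf2, the factor that attaches the flavin to Sdha, was the only one of the 8 complex II members without overlap, at 15.2, 9.45 and 6.59 CPM in circulating libraries and 37.8, 27.5 and 35.2 CPM in muscle libraries (-1.68 ± 0.63, edgeR adjusted p = 0.209, 0.0121 in DESeq2). Over all genes, 11.4% lay lower without overlap. The median over the 8 members was -0.48, and it was 0.25 with scaling on abundant genes.

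Complex III, cytochrome bc1, passes electrons from ubiquinol to cytochrome c. Of its 9 members 8 had a negative fold change, beside 45.5% of all genes, at a median of -0.38 (-0.35 for the nuclear members alone). With scaling on abundant genes the median of complex III was 0.25. CYTB, Uqcrh and Uqcrfs1 lay lower without overlap, beside 11.4% of all genes. Uqcrh, the hinge protein, had 260, 114 and 119 CPM in circulating libraries and 454, 365 and 375 CPM in muscle libraries, with no circulating library near the muscle range (-1.28 ± 0.41, edgeR adjusted p = 0.179). Uqcrfs1, the Rieske iron-sulphur protein, had 20.6, 27.1 and 8.13 CPM in circulating libraries and 69.4, 27.3 and 60.7 CPM in muscle libraries, where circulating replicate 2 and muscle replicate 2 nearly met. Uqcrb, an accessory subunit, had 534, 192 and 234 CPM in circulating libraries and 291, 162 and 255 CPM in muscle libraries and was the member with a positive value (0.44 ± 0.45), negative without circulating replicate 1 at -0.22. Uqcr11, a small accessory subunit, gave -0.38 ± 0.51.

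Complex IV, cytochrome c oxidase, reduces oxygen and had a median of -0.80 over 20 tested members and -0.62 over its 17 tested nuclear members. This was the most negative of the 5 complexes with all libraries, but not without circulating replicate 3 (-0.72, against -0.78 for complex II) or muscle replicate 2 (-0.91, against -0.92 for complex V). Over all tested members it stood at -0.13 when libraries were scaled on abundant genes and -0.16 on the upper quartile, but the nuclear members alone stood at 0.06 with abundant genes. The differences between the complexes were not tested. Cox6c, its most abundant nuclear subunit in CPM, had 674, 422 and 479 CPM in circulating libraries and 577, 574 and 592 CPM in muscle libraries (-0.15 ± 0.30, edgeR adjusted p = 0.794). Cox7c had 371, 61.4 and 97.9 CPM in circulating libraries and 184, 277 and 190 CPM in muscle libraries (-0.29 ± 0.61, -1.51 to 0.01 without single libraries). In both subunits circulating replicate 1 was above every muscle library and the other circulating libraries were below them.

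Several subunits of complex IV have tissue isoforms. Among these, the broadly expressed forms made up nearly all the signal in both groups, and the forms of heart, skeletal muscle, lung or testis were near 0. Cox4i1 averaged 166 ± 104 CPM in circulating and 254 ± 70.1 CPM in muscle libraries, whereas Cox4i2, the lung form, averaged 0.329 ± 0.29 CPM in circulating and 1.19 ± 1.6 CPM in muscle libraries (SD, n = 3 each). Cox6a1 averaged 144 ± 53.4 CPM in circulating and 234 ± 85.3 CPM in muscle libraries, and Cox6a2, the form of heart and skeletal muscle, had 6, 4 and 14 reads in circulating libraries and 4, 14 and 28 reads in muscle libraries. Cox7a2 averaged 91.1 ± 86.4 CPM in circulating and 230 ± 54.1 CPM in muscle libraries (-1.34 ± 0.62), and its muscle form Cox7a1 averaged 1.7 ± 2.06 CPM in circulating and 1.04 ± 0.668 CPM in muscle libraries. The supercomplex factor Cox7a2l gave -0.59 ± 0.49. Cox6b1, Cox7b and Cox8a gave -0.90 ± 0.62, -0.05 ± 0.41 and -0.92 ± 0.51, with Cox6b2, Cox7b2 and Cox8c, forms known mainly from testis, each at a mean of 1.87 CPM or less in either group.

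Cox8b, the form of heart, skeletal muscle and brown fat, differed between the groups at a low level. It had 2, 0 and 2 reads in circulating libraries and 38, 26 and 94 reads in muscle libraries. The groups were far apart (edgeR adjusted p = 0.0909, 0.03 without the filter on low counts), and since a count of 0 allows up to 3 reads, its fitted fold change of -4.31 ± 0.86 depends on the prior count of the fit. Ucp1, Cidea and Elovl3, further markers of brown fat, had at most 15 reads in any library. The sums of muscle fibre markers overlapped between the groups, as given above. Of that list 1 gene, Actn3, lay lower in circulating libraries without overlap, beside 11.4% of all genes, and 1, Myh2, higher, beside 16.2%. The part of muscle fibre RNA in the Cox8b reads was not tested. Ndufa4, a complex IV subunit first assigned to complex I, had 231, 41 and 24.6 CPM in circulating libraries and 239, 248 and 259 CPM in muscle libraries. Circulating replicate 1 stood close to the muscle libraries and the other circulating libraries far below them. With all libraries the log2 fold change was -1.33 ± 0.72 (edgeR adjusted p = 0.324), and without circulating replicate 1 it was -2.99 (edgeR adjusted p = 0.036). Its paralogue Ndufa4l2, known as a gene induced by low oxygen, had 87, 0 and 2 reads in circulating libraries and 106, 251 and 159 reads in muscle libraries (-1.99 ± 1.24, edgeR adjusted p = 0.382), again with circulating replicate 1 apart. Over the 97 tested nuclear members, circulating replicate 1 was the highest circulating library for 58, replicate 2 for 24 and replicate 3 for 15.

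Complex V, ATP synthase, had a negative fold change in 17 of 18 tested members, beside 45.5% of all genes, at a median of -0.63 (-0.55 for the nuclear members alone). That median was 0.08 with scaling on abundant genes and 0.10 with the abundance trend removed. Atp5pb, subunit b of the stalk that holds the catalytic head, had 81.8, 32.3 and 30.9 CPM in circulating libraries and 192, 186 and 336 CPM in muscle libraries. It gave the most negative value of any nuclear member with a mean of at least 20 CPM (-2.30 ± 0.52, edgeR adjusted p = 0.125, 0.0019 to 0.297 over the alternatives), and 38.7% of its windows also occur in another annotated gene. Atp5a1, the alpha subunit of the catalytic head, had 151, 57.8 and 112 CPM in circulating libraries and 286, 190 and 211 CPM in muscle libraries, without overlap (-1.10 ± 0.45, edgeR adjusted p = 0.227). Atp5b, the beta subunit that carries the catalytic sites, had 341, 179 and 177 CPM in circulating libraries and 302, 378 and 315 CPM in muscle libraries, which overlapped (-0.51 ± 0.38). Atp5e, the epsilon subunit of the rotor, averaged 397 ± 223 CPM in circulating and 395 ± 43.6 CPM in muscle libraries, and Atp5j, coupling factor 6, averaged 162 ± 36.7 CPM in circulating and 220 ± 46 CPM in muscle libraries (SD, n = 3 each). The c-ring genes, which encode the same mature protein, gave -0.55 ± 0.72 for Atp5g1, -0.77 ± 0.65 for Atp5g2 and -0.71 ± 0.49 for Atp5g3. Atpif1, the inhibitor of ATP hydrolysis by the enzyme and no member by the naming rule, averaged 33.2 ± 24.9 CPM in circulating and 52.9 ± 5.72 CPM in muscle libraries and overlapped (-0.67 ± 0.66, edgeR adjusted p = 0.568).

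**Figure D5:**
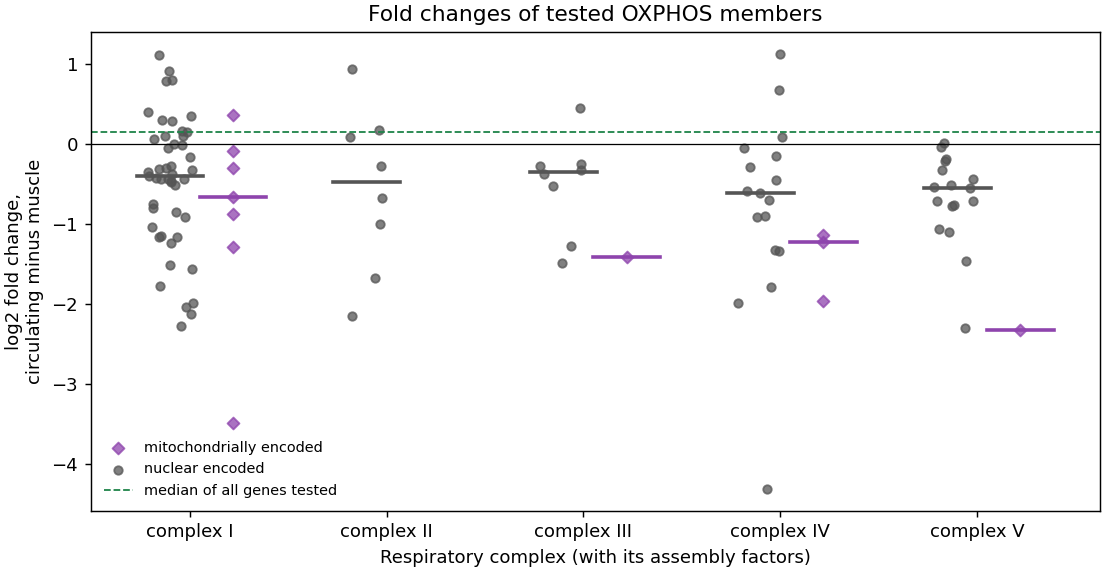
Log2 fold change, circulating minus muscle (vertical axis), of each tested member by respiratory complex, assembly factors included, for nuclear (circles) and mitochondrially encoded (diamonds) genes. Short lines are medians and the dashed line is the median of all genes tested, 0.15; most members of complex V lie below 0, and the mitochondrial members of complexes III, IV and V lie below most nuclear members of the same complex.

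The nuclear members divided their reads among the complexes in similar shares. Nuclear complex I held 33.7%, 39.4% and 36.5% of nuclear OXPHOS reads in circulating libraries and 33.3%, 31.6% and 33.6% in muscle libraries, higher in each circulating library by a small margin. These shares, like the nuclear OXPHOS reads above, count the reads of Ndufb4 under 3 symbols. They were not recomputed with those reads counted once. The shares of complexes II, III, IV and V overlapped, at 22.5% ± 2.42 in circulating and 24.8% ± 1.91 in muscle libraries for complex IV and 26.1% ± 0.919 in circulating and 28.4% ± 1.43 in muscle libraries for complex V (SD, n = 3 each).

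Promoters were examined for the motifs of NRF1 and GABP, the factors named above for nuclear respiratory genes. RefSeq promoters on the build GRCm38.p6, from 250 bases before the start to 50 after it, were matched for 82 of the 102 nuclear members. The ETS motif CCGGAAG, which GABP binds, was searched on both strands and was present in 22 of them, 26.8% beside 12.9% of 17491 protein-coding genes. The NRF1 consensus was present in 8 on either strand, 9.76% beside 2.01% of coding genes. The motifs were counted separately whether or not they overlapped, and Sdhd, the complex II membrane anchor, was the 1 member with both. The 250 bases before the start are printed for Uqcrh and Ndufs3, which lay lower without overlap and hold the ETS motif, and for Sdhd, whose groups overlapped, with motif matches in capitals.
Uqcrh, chr4:116075071-116075320, minus strand: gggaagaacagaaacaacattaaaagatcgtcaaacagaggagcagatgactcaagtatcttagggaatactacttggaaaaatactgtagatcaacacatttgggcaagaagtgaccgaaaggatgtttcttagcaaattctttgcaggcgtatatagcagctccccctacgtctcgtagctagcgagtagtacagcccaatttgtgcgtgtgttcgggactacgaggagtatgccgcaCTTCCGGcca
Ndufs3, chr2:90904722-90904971, minus strand: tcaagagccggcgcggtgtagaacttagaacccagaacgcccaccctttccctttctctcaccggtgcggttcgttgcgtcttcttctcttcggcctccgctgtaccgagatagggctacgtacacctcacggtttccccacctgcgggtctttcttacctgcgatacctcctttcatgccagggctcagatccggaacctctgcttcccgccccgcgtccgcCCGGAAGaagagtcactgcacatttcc
Sdhd, chr9:50603850-50604099, minus strand: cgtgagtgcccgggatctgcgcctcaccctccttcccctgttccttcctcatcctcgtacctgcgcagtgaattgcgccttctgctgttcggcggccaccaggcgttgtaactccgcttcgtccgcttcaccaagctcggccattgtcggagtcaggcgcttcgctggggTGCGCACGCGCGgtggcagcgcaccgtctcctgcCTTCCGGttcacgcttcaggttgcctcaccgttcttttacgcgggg
In Sdhd the first capitals are the NRF1 match and the second the ETS match, and the capitals of Uqcrh and Ndufs3 are ETS matches. The median log2 fold change was -0.62 for tested members with the ETS motif and -0.44 for those without it, and -0.34 for members with the NRF1 motif and -0.45 for those without it. Of the 22 tested members with the ETS motif 4 lay lower in circulating FAPs without overlap, as did 10 of the 59 without it, beside 11.4% of all genes. For the NRF1 motif these were 0 of 8 with it and 14 of 73 without it. These are descriptions of letters in a window.

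Genes around the respiratory chain were read from the same fit, and 0 of each list passed the threshold in edgeR. The counts below stand beside 45.5% of all genes with a negative value, 9.64% lower and 9.71% higher at an unadjusted p under 0.05, and 11.4% lower and 16.2% higher without overlap. With scaling on abundant genes the median of the citric acid cycle list was -0.16, and the medians of the other lists were positive, at 0.36 for assembly factors and electron carriers, 0.50 for ribosomal proteins, 0.51 for upkeep of mitochondrial DNA, 0.57 for carriers and import and 0.67 for regulators, where that of all genes was 0.85. Of the 17 enzymes of pyruvate dehydrogenase and the citric acid cycle, 14 had a negative value at a median of -0.94. At an unadjusted p under 0.05, 2 were lower, near the share of all genes, and 0 higher, and 6 lay lower and 1 higher without overlap. Mdh2, the malate dehydrogenase of mitochondria and the most abundant of them in CPM, was the higher one, at 113, 120 and 128 CPM in circulating libraries and 68.1, 57.1 and 77.4 CPM in muscle libraries (0.83 ± 0.42, edgeR adjusted p = 0.295). Of 55 tested assembly factors and electron carriers outside the naming rule, 34 had a negative value at a median of -0.33, and Uqcc2, a complex III assembly factor, averaged 266 ± 160 CPM in circulating and 157 ± 47.7 CPM in muscle libraries. The 75 tested mitochondrial ribosomal proteins had a median of -0.22 with 45 negative, 7 lower and 1 higher at an unadjusted p under 0.05, so the lower share was near that of all genes. Mrpl33, of the large subunit, averaged 81.2 ± 58.9 CPM in circulating and 115 ± 44.2 CPM in muscle libraries.

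Genes that maintain and express mitochondrial DNA had a median of -0.23 over 33 tested, with 3 lower and 1 higher at an unadjusted p under 0.05, lower in about the share of all genes, and Angel2, the most abundant in CPM, gave -0.60 ± 0.57. Carriers and import proteins had a median of -0.13 over 25 tested. Of these, 1 was lower and 1 higher at an unadjusted p under 0.05, and 3 lay lower and 1 higher without overlap. Slc25a4, the ATP and ADP exchanger of heart and muscle, averaged 209 ± 95.9 CPM in circulating and 227 ± 65.1 CPM in muscle libraries. Slc25a5, of the same list, averaged 33.6 ± 9.8 CPM in circulating and 120 ± 44.7 CPM in muscle libraries, without overlap (-1.84 ± 0.50, edgeR adjusted p = 0.154). The 21 transcriptional regulators had a median of -0.04, with TMM scaling the closest of these lists to that of all genes. With the abundance trend removed they stood 0.16 above the median of all genes, and the mitochondrial ribosomal proteins stood closer, at 0.08 above it. Of the 21 regulators, 3 were lower and 1 higher at an unadjusted p under 0.05. Without overlap 4 lay lower (Myc, Pprc1, Nfe2l2 and Thra) and 3 higher (Ppargc1a, Esrrg and Sirt3). Myc, a growth regulator that also acts on mitochondrial genes, was tight within each group and apart between the groups (-1.07 ± 0.32, edgeR adjusted p = 0.171). It had 172, 216 and 194 CPM in circulating libraries and 381, 424 and 415 CPM in muscle libraries.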

How the data were processed

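RNA-seq was measured in 3 circulating and 3 muscle FAP libraries, grouped by title. The deposited table gives raw read counts by gene symbol, 1 column per library. Its tools per the submitters' processing notes were Trim Galore, STAR and featureCounts, on the build GRCm39. Versions, strand, handling of multiple matches and annotation were not given in the sources used here. Per the labels' protocols, libraries were prepared with a TruePrep DNA kit.

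Counts were tested with edgeR 4.0.16 (limma 3.58.1, R 4.3.3): TMM scaling, filterByExpr, robust quasi-likelihood F test, Benjamini-Hochberg adjustment over all 20248 genes tested, threshold 0.05. The SE of a fold change is its size over the root of F. CPM are per 1000000 of the TMM-scaled library; CPM per kilobase divides by exon length from GENCODE M21 (GRCm38), matched by symbol for 113 members. The log2 ratios compare summed reads within a library. Abundant genes, for scaling, had a mean of at least 20 CPM. DESeq2 1.42.0 was an alternative, with other scalings, filters, the replicate block and leaving out single libraries. The steps were tested on simulated data. Replicates differed beyond sampling noise, by a chi-square per degree of freedom of 67.8 or more.

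Members, complexes and lists were chosen with earlier results of these data known; no list was tested. Of 59 named genes, the rule took the mitochondrial genes, the 3 most abundant nuclear subunits of each complex, the 4 largest changes each way at 20 CPM or more, the tissue isoforms, the complex II subunits and the most abundant gene of each pathway list. Other genes were named after their values were seen. The 2 alternatives on shared windows were added after seeing the data. The NRF1 consensus allows either pyrimidine or purine at its variable bases. Figures were drawn with matplotlib 3.10.9.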

Additional observations from a re-analysis of the deposited data

How the results depend on the processing

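Directions and calls were recomputed under each alternative. In edgeR, 22 genes passed over the whole table; 43 passed with RLE scaling, 2 with upper quartile scaling, 7 with scaling on abundant genes, 5 with the abundance trend removed, 160 with no filter, 1542 in DESeq2, and 0 to 65 when single libraries were left out (65 if circulating replicate 1 was omitted, 0 if muscle replicate 3 was, and 1 for any other). Of the members, 0 passed; 4 passed with no filter (ND3, CYTB, Cox8b and Atp5pb), 8 in DESeq2, and 0 to 3 when single libraries were left out, the 3 being CYTB, Ndufa4 and Atp5pb without circulating replicate 1. The mitochondrial median of -1.18 became -0.51 with upper quartile scaling, -0.48 with abundant genes, -0.66 with the trend removed, -1.45 with no filter, -0.67 for genes under 10% shared, and -1.53 to -1.06 without single libraries. The nuclear median of -0.44 became 0.19, 0.25 and 0.22 under upper quartile scaling, abundant genes and trend removal, and -0.92 to -0.41 without single libraries. Under the same 3 settings, complex I gave 0.27, 0.33 and 0.34, complex II 0.21, 0.25 and 0.27, complex III 0.19, 0.25 and 0.30, complex IV -0.16, -0.13 and -0.24, and complex V 0.04, 0.08 and 0.10. Complex III gave -0.90 for members under 10% shared. Without single libraries, complex I ran from -0.78 to -0.23, complex II from -0.78 to -0.25, complex III from -1.18 to -0.50, complex IV from -1.50 to -0.72 and complex V from -1.04 to -0.46. Upper quartile scaling moved the median of all genes by 0.67, library size by 0.15 and RLE by -0.10. The log2 ratio of the genomes stayed between -0.63 and -0.26, and the difference in OXPHOS share between -0.67 and -0.09 percentage points.

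Same-numbered libraries did not deviate together (correlations of 0.00812, 0.041 and 0.00584), so the numbers were not taken as pairs; with the replicate block 1 gene passed (not Gm10222, adjusted p = 0.122), no member passed, and the medians were -1.17 for mitochondrial and -0.59 for nuclear members. Over the named genes, 911 values under an alternative kept their direction and side of the threshold, and 120 did not; of these, 14 passed under an alternative and 106 changed sign without being called in either fit. The cause of these changes was not tested. Low depth limits ATP8, Cox8b, ND4L and ATP6, with under 30 reads in each circulating library.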
